A study of Mus musculus with 12 samples.

Results

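Type I interferon-stimulated genes were described across 12 RNA sequencing libraries from mouse colonic adenomas. The set holds 39 genes, of 25705 in the deposited table, and was chosen by name: sensors of foreign nucleic acid, the STAT and IRF transcription factors that carry the interferon signal, and the effectors induced by it. The rule uses gene names and no measured value, but the genes were chosen with earlier results of these data known. Of the 39, 38 passed the filter on low values, which asked for 1 FPKM or more in 3 or more of the 12 libraries and which 15150 genes passed in all. Mx2 did not pass. FPKM is the number of fragments scaled to transcript length and library depth.

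All 12 samples carried ApcMin/+, a truncating allele of the tumour suppressor gene Apc that causes intestinal adenomas, on a C57BL/6J background, and were taken at 150 to 160 days of age. The 4 groups of 3 libraries were Tet1-/- Tdg+/+ ApcMin/+ (called Tet1-null here, after the label), Tet1+/- TdgN151A/+ ApcMin/+ (double-heterozygous), Tet1+/+ TdgN151A/+ ApcMin/+ (Tdg-heterozygous) and Tet1+/+ Tdg+/+ ApcMin/+ (control). TET1 oxidises methylcytosine and TDG is the glycosylase that removes the oxidised bases, and both act in DNA demethylation. The labels describe crosses of mutant mice and name no tissue-specific driver, and dissected adenomas hold stromal and immune cells beside the epithelium. The labels do not say whether the 3 samples of a group came from separate animals, so the p-values measure the spread between these samples. A library is called by its group and its column number (0, 1 or 2) in the table, and values in threes follow that order.

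Type I interferons are secreted when a cell senses foreign or misplaced nucleic acid. They bind a receptor of the IFNAR1 and IFNAR2 chains, whose kinases phosphorylate STAT proteins, STAT2 among them, and these join IRF9 to form the complex ISGF3. ISGF3 binds the interferon-stimulated response element in the promoters of its target genes, many of which encode antiviral proteins and further sensors of the same pathway. In the intestine these genes are transcribed by epithelial and immune cells alike.

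FPKM summed to between 663551 and 977282 in a library, and between 13692 and 14384 genes reached 1 FPKM. Depth in reads is unknown, since no counts are given. The epithelial gene Epcam (753 to 1856 FPKM) and the colonic genes Hoxa10 (40.9 to 148 FPKM), Hoxb13 (25.1 to 159.5 FPKM) and Car1 (46.3 to 389 FPKM) were found in every library. The colonic genes Hoxd13 and Slc26a3 varied more, with their lowest values at 0.2099 FPKM in control library 0 and 0.0878 FPKM in Tet1-null library 0. Hoxd13 was also low in Tet1-null library 2, at 0.683 FPKM. Of the small-intestinal list, Apoa4 and Sis were listed at under 0.1 FPKM and Gata4 at no more than 0.294 FPKM, while Fabp6 (0.604 to 8.7004 FPKM) and Onecut2 (0.204 to 31.3 FPKM) were found in every library. Tet1 itself was low in every library, from 0.127 to 0.621 FPKM, with the highest value in Tet1-null library 0. The labels do not say which part of Tet1 is disrupted, so its gene-level FPKM does not check the genotype. Libraries Tet1-null 1 and Tdg-heterozygous 2 stood apart in genes outside the set, with Notum, a Wnt target of adenomas, at 0.70 and 8.53 FPKM and the differentiation keratin Krt20 at 463 and 1053 FPKM. Xist, the RNA of the inactive X chromosome, stood at 0.285, 0.0803 and 357 FPKM in Tet1-null adenomas, 0.114, 0.237 and 0.123 FPKM in double-heterozygous ones, 336, 0.0636 and 206 FPKM in Tdg-heterozygous ones and 0.0758, 361 and 298 FPKM in controls.

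Promoter windows are shown first, because they carry the sequence that ISGF3 reads. The windows come from RefSeq promoter sequences of build GRCm38.p6, the same assembly as mm10, and 28 of the 39 genes had one. The core of the response element was searched as GAAA, 2 bases of any kind and GAAA on both strands, so that TTTC, 2 bases and TTTC marks a match on the other strand, in the 250 bases before each transcription start. It was found in 9 of the 28 windows (32.1%), beside 3.04% of 27025 promoters of all genes and 2.6% of the 10178 promoters of genes that passed the filter. The stretches below are written 5′ to 3′ on the gene's own strand, with matches in capitals and overlapping matches merged.
Isg15: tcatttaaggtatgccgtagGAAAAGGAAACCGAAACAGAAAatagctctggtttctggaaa
Ifit1: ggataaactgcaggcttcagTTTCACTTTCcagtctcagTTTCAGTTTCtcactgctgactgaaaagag
Ifit3: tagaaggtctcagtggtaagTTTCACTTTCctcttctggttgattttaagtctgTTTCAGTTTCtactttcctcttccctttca
Bst2: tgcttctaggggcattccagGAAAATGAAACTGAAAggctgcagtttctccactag
Oas1a: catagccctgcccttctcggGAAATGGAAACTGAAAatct
Oas3: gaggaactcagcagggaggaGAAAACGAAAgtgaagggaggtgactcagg
Stat2: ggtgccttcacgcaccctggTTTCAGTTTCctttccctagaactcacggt
Rsad2: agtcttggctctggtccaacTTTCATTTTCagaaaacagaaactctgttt
Trim30a: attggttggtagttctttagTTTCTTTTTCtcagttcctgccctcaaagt
They lie at chr4:156200855-156200916 (Isg15, minus strand), chr19:34640765-34640833 (Ifit1, plus), chr19:34583353-34583436 (Ifit3, plus), chr8:71537567-71537622 (Bst2, minus) and chr5:120907526-120907565 (Oas1a, minus). The others lie at chr5:120777705-120777754 (Oas3, minus), chr10:128270256-128270305 (Stat2, plus), chr12:26456543-26456592 (Rsad2, minus) and chr7:104465200-104465249 (Trim30a, minus). None of the 9 stretches lies inside the body of the gene it precedes, and gene positions given with the values come from GENCODE M21 on the same build. Isg15 held 3 overlapping matches in 1 run, Oas1a and Bst2 held 2 overlapping matches each, and Ifit1 and Ifit3 held 2 separate ones. A match describes these letters only, and a window without one says nothing of the factor.

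Most of the 39 genes had their highest value in the same library, which was also the only Tet1-null library with Xist above 10 FPKM. Tet1-null library 2 held the highest of the 12 values for 34 of them, which was the case for 7.72% of all genes tested. It lay above every control library for all 39 (27.9% of all genes) and at least 2-fold above every control library, on FPKM + 1, for 33 of 39 (2.03% of all genes). Its FPKM over the control mean had a median of 4.57-fold over the 39 genes, from 1.57-fold for Tor3a to 33.5-fold for Oas2, and it passed 5-fold for 18 of them. The exceptions, whose highest value lay elsewhere, were Usp18 (Tet1-null library 0), Eif2ak2 (double-heterozygous library 0) and Ifih1, Trim25 and Ifi27l2a (Tdg-heterozygous library 2).

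The other 2 Tet1-null libraries did not share that level. A score was taken for each library as the median, over the 38 genes that passed the filter, of log2(FPKM + 1) minus the control mean. It was 0.62, -0.31 and 2.01 in the Tet1-null libraries, 0.11, -0.15 and -0.34 in the double-heterozygous, 0.14, 0.03 and 0.42 in the Tdg-heterozygous and -0.19, 0.18 and -0.05 in the control libraries. Tet1-null libraries 2 and 0 were the highest of the 12, and Tet1-null library 1 was lower than every library but double-heterozygous library 2. Within the Tet1-null group 31 of the 39 genes followed the order library 2, then 0, then 1.

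**Figure D1:**
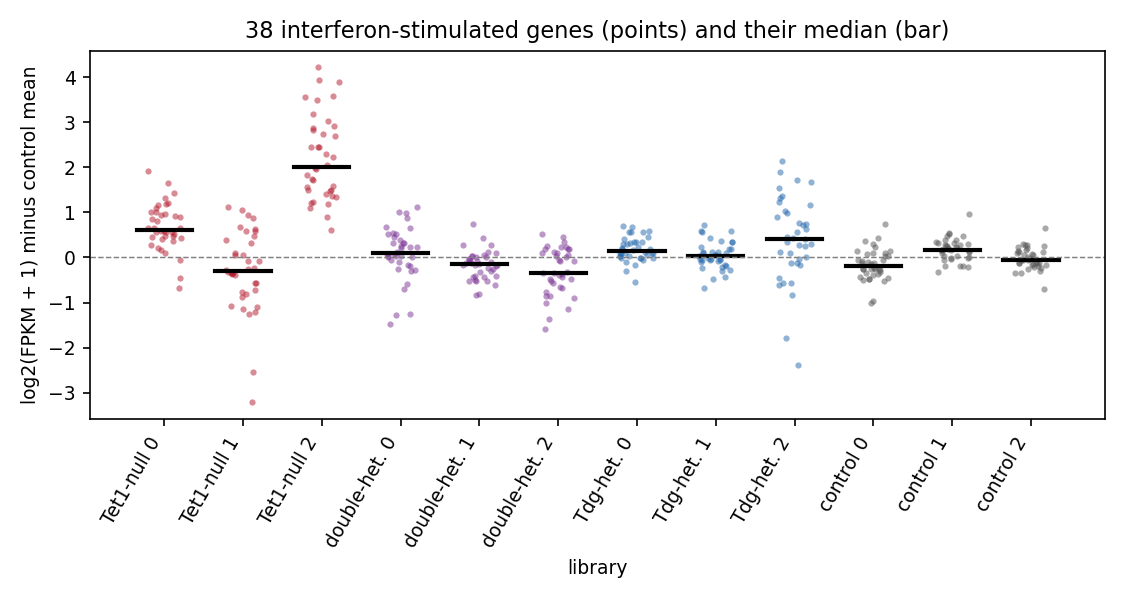
Each point is 1 of the 38 interferon-stimulated genes that passed the filter, with log2(FPKM + 1) minus the mean of the control libraries on the vertical axis and the 12 libraries on the horizontal axis; the bar is the median of the points. The bar stands at 2.01 in Tet1-null library 2, at 0.62 and -0.31 in the other Tet1-null libraries, and between -0.34 and 0.42 in the remaining 9.

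**Figure D2:**
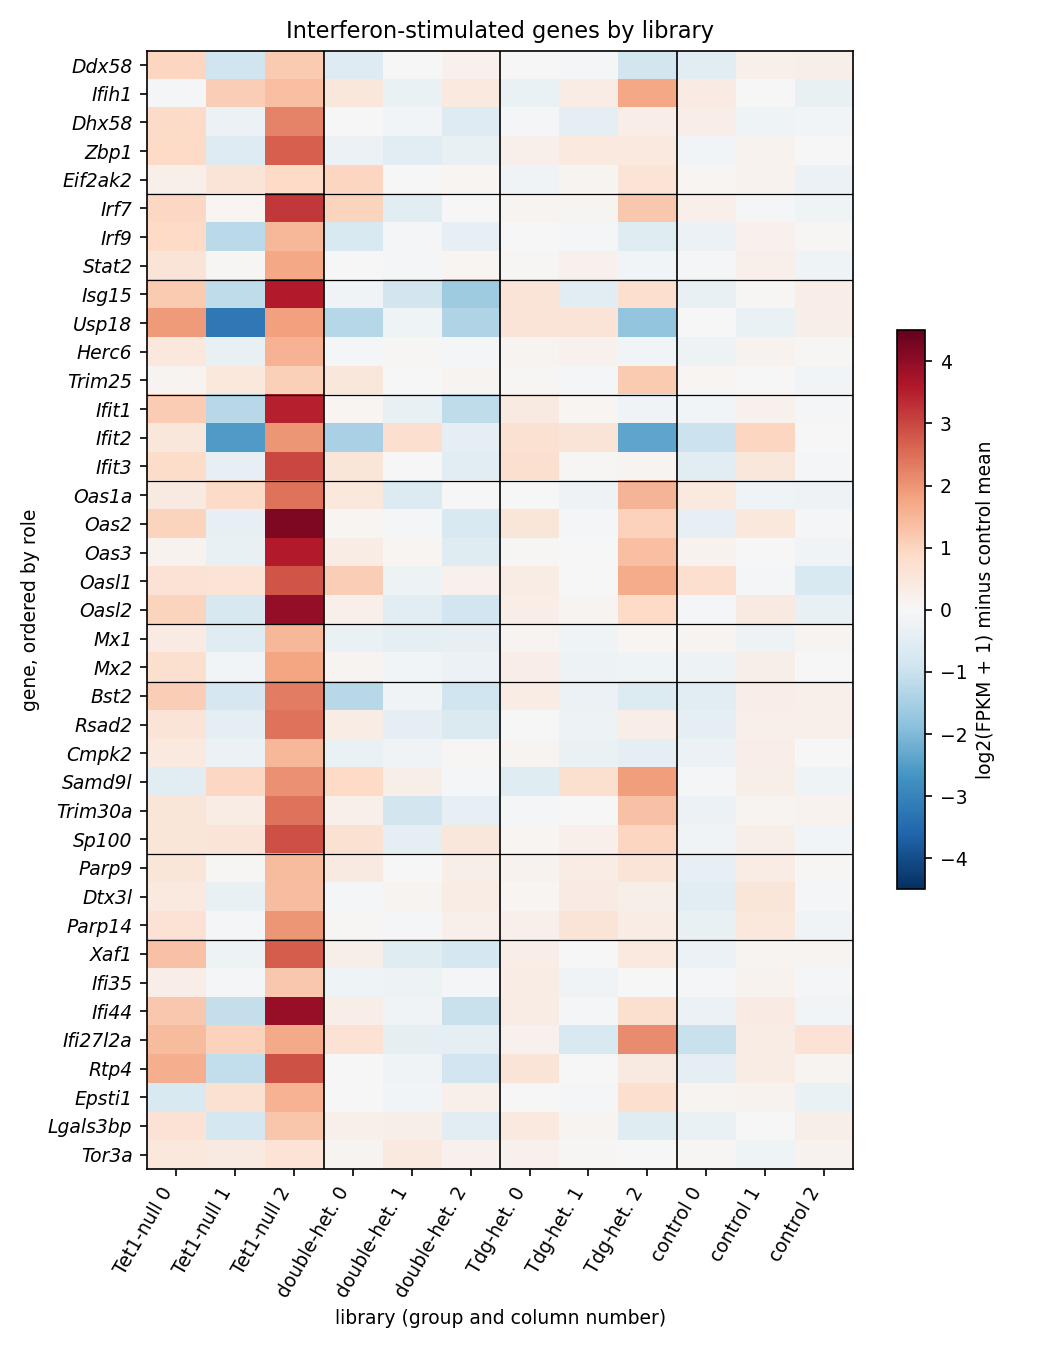
Colour gives log2(FPKM + 1) minus the control mean for 39 genes (rows, ordered by role: sensors, factors, the ISG15 system, Ifit, Oas, Mx, restriction factors, ADP-ribosylation, others) in 12 libraries (columns). The column of Tet1-null library 2 is red in every row, while Tet1-null library 1 and Tdg-heterozygous library 2 hold both red and blue rows.

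Sensors of nucleic acid had the smallest differences beside the ADP-ribosylation genes, with a median of 2.699-fold over the control mean in Tet1-null library 2. Ddx58 (chr4:40203773-40239828, minus strand), which encodes the RNA sensor RIG-I, stood at FPKM values of 24.3, 6.06 and 28.4 in the Tet1-null libraries, 7.59, 12.3 and 13.9 in the double-heterozygous, 11.96, 11.5 and 6.298 in the Tdg-heterozygous and 8.14, 14.4 and 14.6 in the control libraries. Tet1-null libraries 0 and 2 lay above every control library and library 1 below every one. Ifih1 (chr2:62595798-62646255, minus strand), which encodes MDA5, a sensor of long double-stranded RNA, stood at FPKM values of 6.89, 16.7 and 19.8 in the Tet1-null libraries, 10.7, 5.67 and 10.1 in the double-heterozygous, 5.66, 9.35 and 26.02 in the Tdg-heterozygous and 9.52, 7.04 and 5.39 in the control libraries. Here the order differed, with Tet1-null libraries 1 and 2 and Tdg-heterozygous library 2 above every control library and Tet1-null library 0 among the controls.

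Zbp1 (chr2:173206612-173218923, minus strand), a sensor of Z-form nucleic acid that can start necroptosis, stood at FPKM values of 22.7, 7.55 and 81.3 in the Tet1-null libraries, 9.67, 7.83 and 9.18 in the double-heterozygous, 13.98, 16.2 and 16.2 in the Tdg-heterozygous and 10.7, 13.1 and 11.5 in the control libraries. The 3 Tdg-heterozygous libraries lay above, and the 3 double-heterozygous libraries below, every control library, while the Tet1-null libraries lay on both sides. Its Tdg-heterozygous mean was 15.5 ± 1.29 FPKM and its control mean 11.8 ± 1.25 FPKM (SD, n = 3 each), with a log2 difference of 0.37 (SE 0.61). Eif2ak2 (chr17:78852564-78882573, minus strand) encodes PKR, a kinase that stops translation on binding double-stranded RNA, and stood at FPKM values of 13.3, 17.6 and 21.9 in the Tet1-null libraries, 23.2, 11.1 and 12.1 in the double-heterozygous, 10.02, 12.4 and 18.01 in the Tdg-heterozygous and 12.2, 12.8 and 9.24 in the control libraries. Every Tet1-null library lay above every control library, though double-heterozygous library 0 was the highest of all. Dhx58, which encodes LGP2, a regulator of the other RNA sensors, was 5.57-fold over the control mean in Tet1-null library 2 and overlaps an antisense transcript that libraries without strand cannot separate.

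The transcription factors of the pathway were highest in Tet1-null library 2 as well. Irf7 (chr7:141262706-141266481, minus strand), which amplifies the induction of interferon genes, stood at FPKM values of 26.6, 14.5 and 129.9 in the Tet1-null libraries, 28.2, 9.09 and 13.6 in the double-heterozygous, 14.5, 14.7 and 32.7 in the Tdg-heterozygous and 15.9, 13.05 and 11.6 in the control libraries. Tet1-null library 2 was 9.61-fold over the control mean, followed by Tdg-heterozygous library 2, double-heterozygous library 0 and Tet1-null library 0. Irf9 (chr14:55603571-55610030, plus strand), the DNA-binding part of ISGF3, stood at FPKM values of 46.01, 9.86 and 69.2 in the Tet1-null libraries, 14.4, 22.7 and 18.5 in the double-heterozygous, 23.8, 23.02 and 15.9 in the Tdg-heterozygous and 19.9, 27.7 and 24.9 in the control libraries. Tet1-null libraries 0 and 2 were above all others, and Tet1-null library 1 was the lowest of the 12. Stat2 (chr10:128270559-128292849, plus strand), the STAT that IRF9 pairs with, stood at FPKM values of 10.5, 6.98 and 24.5 in the Tet1-null libraries, 6.67, 6.19 and 7.201 in the double-heterozygous, 6.97, 7.76 and 5.99 in the Tdg-heterozygous and 6.36, 8.0001 and 5.78 in the control libraries. Its Tet1-null mean was 14.01 ± 9.29 FPKM against 6.71 ± 1.15 FPKM in the controls (SD, n = 3 each), a log2 difference of 0.80 (SE 0.35), and the groups overlapped through Tet1-null library 1.

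The ubiquitin-like protein ISG15 and the enzymes that attach or remove it covered a wide range. Isg15 (chr4:156199424-156200818, minus strand), whose promoter stretch holds the 3 matches printed above, stood at FPKM values of 23.3, 3.896 and 128 in the Tet1-null libraries, 8.63, 5.07 and 2.57 in the double-heterozygous, 14.9, 6.69 and 17.3 in the Tdg-heterozygous and 7.46, 10.04 and 12.3 in the control libraries. Tet1-null library 2 was 12.9-fold and library 0 2.35-fold over the control mean, while library 1 lay at 0.393 of it, so that the group lay on both sides of the controls. The Tet1-null mean was 51.7 ± 66.7 FPKM and the control mean 9.92 ± 2.403 FPKM (SD, n = 3 each), with a log2 difference of 1.21 (SE 0.94). Double-heterozygous library 2 was the lowest of the 12, and only library 0 of that group overlapped the controls.

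Usp18 (chr6:121245906-121270917, plus strand), the protease that removes ISG15 and also damps signalling at the IFNAR2 chain, stood at FPKM values of 54.5, 0.592 and 51.8 in the Tet1-null libraries, 5.13, 11.96 and 4.73 in the double-heterozygous, 21.03, 21.1 and 3.297 in the Tdg-heterozygous and 14.1, 10.9 and 16.9 in the control libraries. Its Tet1-null libraries were far apart, 3.91-fold and 3.71-fold over the control mean in libraries 0 and 2 and 0.0424 of it in library 1. Low values were also found in double-heterozygous libraries 0 and 2 and in library 2 of the Tdg-heterozygous group. Trim25 (chr11:88999376-89020293, plus strand), a ubiquitin ligase that acts on RIG-I, stood at FPKM values of 18.4, 23.9 and 37.2 in the Tet1-null libraries, 24.6, 17.1 and 18.7 in the double-heterozygous, 17.5, 16.5 and 39.5 in the Tdg-heterozygous and 18.1, 17.3 and 15.6 in the control libraries. Every Tet1-null library lay above every control library, library 0 by little, and the highest value was in Tdg-heterozygous library 2. Herc6, the main ISG15 ligase of the mouse, was 4.304-fold over the control mean in Tet1-null library 2.

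**Figure D3:**
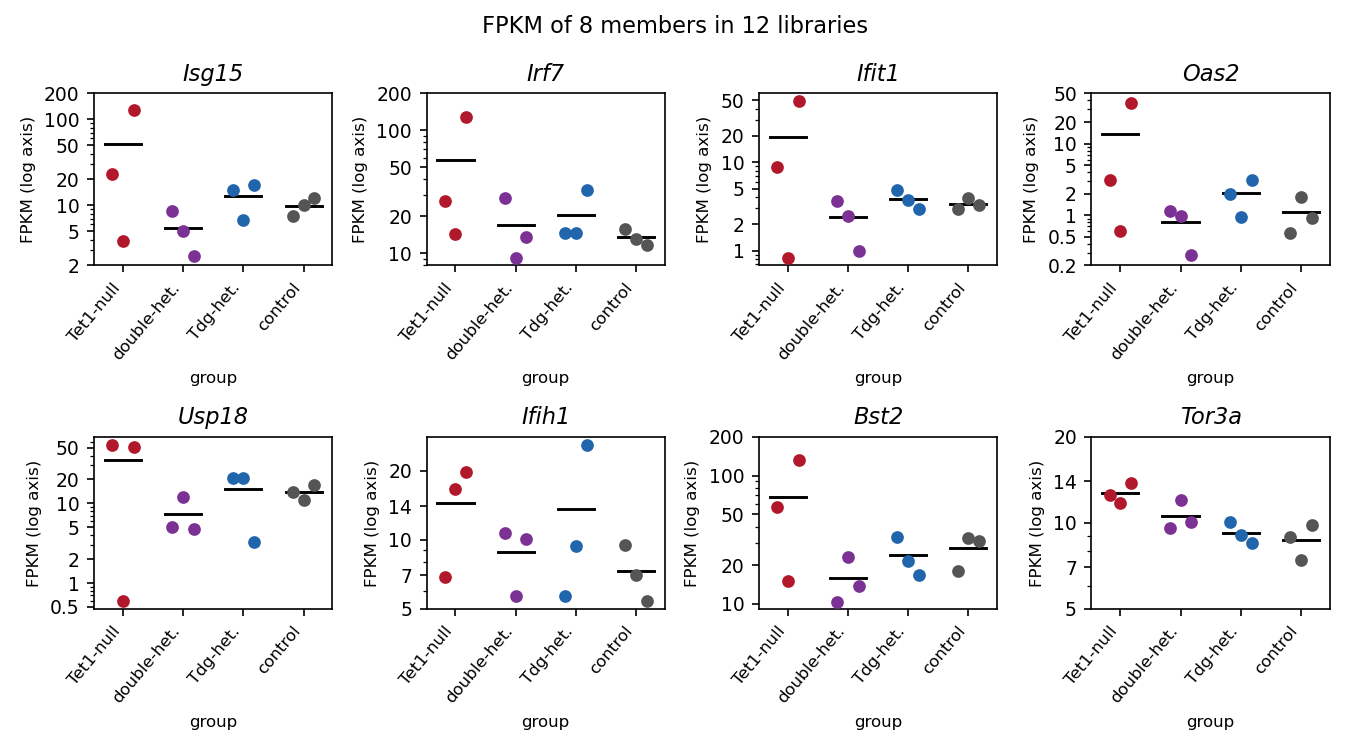
FPKM (log axis) of 8 of the genes in the 4 groups, with 1 point per library in the order 0, 1, 2 from left to right and a bar at the group mean (n = 3). Isg15, Irf7, Ifit1, Oas2 and Bst2 are highest in Tet1-null library 2, Usp18 is high in Tet1-null libraries 0 and 2 and at 0.592 FPKM in library 1, Ifih1 is highest in Tdg-heterozygous library 2, and Tor3a is the gene whose 3 Tet1-null libraries lie close together.

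The Ifit genes, whose proteins bind viral RNA or block its translation, form a cluster on chromosome 19, and their median was 11.8-fold over the control mean in Tet1-null library 2. Ifit1 (chr19:34640871-34650009, plus strand) stood at FPKM values of 8.76, 0.835 and 48.8 in the Tet1-null libraries, 3.66, 2.495 and 0.985 in the double-heterozygous, 4.85, 3.69 and 2.92 in the Tdg-heterozygous and 2.99, 3.96 and 3.25 in the control libraries. Tet1-null library 2 was 14.3-fold over the control mean, library 0 was 2.58-fold over it, and library 1 was the lowest of the 12. Ifit3 (chr19:34583531-34588731, plus strand) stood at FPKM values of 3.55, 1.01 and 20.1 in the Tet1-null libraries, 2.805, 1.59 and 0.862 in the double-heterozygous, 3.24, 1.71 and 1.82 in the Tdg-heterozygous and 0.872, 2.704 and 1.51 in the control libraries. Its Tet1-null libraries 0 and 2 lay above every control library and library 1 among them. Of the 75 nt windows in Ifit3 transcripts 41.1% also occur in Ifit3b, so its FPKM may hold reads of both genes and is uncertain, and 5.19% of those of Ifit1 occur in Ifit1bl2.

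Ifit2 (chr19:34550694-34576419, plus strand) moved apart from its neighbours and stood at FPKM values of 14.4, 0.838 and 41.3 in the Tet1-null libraries, 2.85, 16.98 and 6.88 in the double-heterozygous, 16.1, 14.8 and 1.05 in the Tdg-heterozygous and 4.44, 19.9 and 9.72 in the control libraries. It was low in Tet1-null library 1 and Tdg-heterozygous library 2, at 0.0737 and 0.0924 of the control mean, and the controls themselves ranged from 4.44 to 19.9 FPKM. Its log2 difference between Tet1-null and control was -0.01 (SE 1.19), the only one of the 38 below 0.

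The oligoadenylate synthetases had the largest folds of any role, a median of 16.8-fold over the control mean in Tet1-null library 2. OAS1, OAS2 and OAS3 make the oligoadenylates that activate RNase L, and all 5 genes of the set lie on chromosome 5. Oas2 (chr5:120730333-120749853, minus strand) stood at FPKM values of 3.09, 0.595 and 36.9 in the Tet1-null libraries, 1.15, 0.982 and 0.282 in the double-heterozygous, 2.01, 0.959 and 3.15 in the Tdg-heterozygous and 0.566, 1.83 and 0.914 in the control libraries. Tet1-null library 2 exceeded the next highest library 11.7-fold, and the other libraries of all groups overlapped. Oasl2 (chr5:114896936-114912234, plus strand), an OAS-like gene, stood at FPKM values of 16.7, 4.34 and 133 in the Tet1-null libraries, 9.27, 5.19 and 3.82 in the double-heterozygous, 9.71, 8.42 and 15.4 in the Tdg-heterozygous and 7.46, 10.5 and 5.87 in the control libraries. Tet1-null libraries 2 and 0 were the highest of the 12, with library 1 below every control library. Oas3 was 25.9-fold over the control mean in Tet1-null library 2, and Oasl1, which limits IRF7 translation in the mouse, was 7.43-fold over it. Oas1a was 5.91-fold over it, but 47.6% of its 75 nt windows also occur in Oas1g.

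The Mx genes belong to a family of GTPases known for trapping viral ribonucleoproteins, and both had low values in these libraries. Whether their transcripts encode working proteins in these mice was not examined. Mx1 (chr16:97447035-97462907, minus strand) stood at FPKM values of 1.61, 0.383 and 4.79 in the Tet1-null libraries, 0.654, 0.501 and 0.595 in the double-heterozygous, 1.201, 0.794 and 1.17 in the Tdg-heterozygous and 1.198, 0.7496 and 1.197 in the control libraries. Tet1-null library 2 was 4.57-fold over the control mean, and all 3 double-heterozygous libraries lay below every control library. Mx2 (chr16:97535308-97560900, plus strand), the gene that did not pass the filter, stood at FPKM values of 1.17, 0.228 and 3.52 in the Tet1-null libraries, 0.449, 0.221 and 0.0926 in the double-heterozygous, 0.615, 0.118 and 0.153 in the Tdg-heterozygous and 0.116, 0.593 and 0.299 in the control libraries. It was above 1 FPKM in Tet1-null libraries 0 and 2 only.

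Restriction factors act on the virus itself. Bst2 (chr8:71534255-71537456, minus strand), or tetherin, holds budding particles at the cell surface and stood at FPKM values of 57.4, 14.98 and 133 in the Tet1-null libraries, 10.4, 23.3 and 13.7 in the double-heterozygous, 33.3, 21.6 and 16.9 in the Tdg-heterozygous and 18.02, 32.5 and 30.6 in the control libraries. Tet1-null libraries 2 and 0 were the highest of the 12, library 1 was below every control library, and so were double-heterozygous libraries 0 and 2 and Tdg-heterozygous library 2. Rsad2 (chr12:26442746-26456452, minus strand), or viperin, makes a nucleotide that ends viral RNA chains and stood at FPKM values of 2.28, 0.6499 and 10.9 in the Tet1-null libraries, 1.72, 0.643 and 0.375 in the double-heterozygous, 1.17, 0.879 and 1.65 in the Tdg-heterozygous and 0.585, 1.52 and 1.57 in the control libraries. Tet1-null library 2 was 8.89-fold over the control mean, and Cmpk2, a nucleotide kinase gene beside it on chromosome 12, was 3.25-fold over it.

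Trim30a (chr7:104409025-104465193, minus strand), which restrains Toll-like receptor signalling in the mouse, stood at FPKM values of 5.55, 4.55 and 23.2 in the Tet1-null libraries, 4.16, 1.53 and 2.46 in the double-heterozygous, 3.305, 3.56 and 10.04 in the Tdg-heterozygous and 2.72, 3.79 and 3.95 in the control libraries. Every Tet1-null library lay above every control and every double-heterozygous library, with a log2 difference of 1.43 (SE 0.56) against the latter, and 4.98% of its windows occur in Trim30d. Sp100, a component of nuclear bodies, had a Tet1-null mean of 17.3 ± 18.2 FPKM and a control mean of 4.28 ± 0.873 FPKM (SD, n = 3 each), with a log2 difference of 1.35 (SE 0.58) and no overlap of the libraries. Samd9l, an antiviral gene linked to restraint of growth, was 4.41-fold over the control mean in Tet1-null library 2 and 3.95-fold in Tdg-heterozygous library 2.

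The ADP-ribosylation genes had narrow ranges, with a median of 2.69-fold in Tet1-null library 2. Parp14 (chr16:35832874-35871544, minus strand), a mono-ADP-ribosyltransferase, stood at FPKM values of 11.1, 6.35 and 29.2 in the Tet1-null libraries, 6.92, 6.33 and 8.04 in the double-heterozygous, 7.94, 10.5 and 8.83 in the Tdg-heterozygous and 5.15, 9.77 and 5.92 in the control libraries. Tet1-null libraries 2 and 0 were the highest of the 12 and library 1 lay among the controls. Parp9 and its partner Dtx3l, a ubiquitin ligase, were 2.69-fold and 2.59-fold over the control mean in Tet1-null library 2. They overlap on opposite strands, and the share of 75 nt windows in common was 6.63% and 6.72%.

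The remaining genes have less closely related functions, and their median was 3.11-fold in Tet1-null library 2. Xaf1 (chr11:72301629-72313733, plus strand), which binds the apoptosis inhibitor XIAP, stood at FPKM values of 26.4, 8.36 and 72.5 in the Tet1-null libraries, 12.1, 6.65 and 5.46 in the double-heterozygous, 12.6, 9.87 and 14.1 in the Tdg-heterozygous and 8.27, 11.1 and 11.05 in the control libraries. Tet1-null libraries 2 and 0 were the highest of the 12, and library 1 overlapped the controls. Ifi27l2a (chr12:103442167-103443680, minus strand), a gene of the Ifi27 family, stood at FPKM values of 27.2, 20.5 and 33.3 in the Tet1-null libraries, 15.4, 6.72 and 6.91 in the double-heterozygous, 10.8, 5.53 and 45.1 in the Tdg-heterozygous and 4.19, 12.2 and 15.5 in the control libraries. All Tet1-null libraries lay above all control and all double-heterozygous libraries, while the highest value was in Tdg-heterozygous library 2.

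Lgals3bp (chr11:118392751-118402092, minus strand), a secreted galectin-binding glycoprotein and the most abundant gene of the set, stood at FPKM values of 286, 104 and 431 in the Tet1-null libraries, 215, 221 and 131 in the double-heterozygous, 249, 198 and 124 in the Tdg-heterozygous and 149.8, 185 and 220.3 in the control libraries. Tet1-null library 1 was the lowest of the 12 and libraries 0 and 2 were the highest. Tor3a (chr1:156653617-156674356, minus strand), an ATPase gene of the torsin family, stood at FPKM values of 12.5, 11.7 and 13.8 in the Tet1-null libraries, 9.57, 12.01 and 10.1 in the double-heterozygous, 10.1, 9.09 and 8.503 in the Tdg-heterozygous and 8.95, 7.44 and 9.84 in the control libraries. Every Tet1-null library lay above every control and every Tdg-heterozygous library, and the 3 values were close, with a mean of 12.7 ± 1.01 FPKM against 8.74 ± 1.21 FPKM in the controls (SD, n = 3 each). Ifi44, Rtp4, Epsti1 and Ifi35 were 21.4, 8.18, 3.09 and 2.38-fold over the control mean in Tet1-null library 2. Of the windows in Rtp4, Herc6 and Ifi35, 10.5%, 11.3% and 7.42% occur in other genes' transcripts.

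The design compares 4 genotypes, and 6 pairwise comparisons were tested with limma on log2(FPKM + 1), adjusted over all 15150 genes. None of the 38 interferon-stimulated genes passed in any comparison, and the adjusted p was 1 for each. Between Tet1-null and control the background was 2 genes called higher (0.0132% of all tested) and 0 called lower. At an unadjusted p under 0.05 there were 3 of the 38, beside 1.63% of all genes. These were Tor3a with a log2 difference of 0.50 (SE 0.15) and an unadjusted limma p of 0.00694, Sp100 with an unadjusted limma p of 0.0426 and Stat2 with an unadjusted limma p of 0.0445.

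The values of the set were nonetheless higher in the Tet1-null group for 37 of 38 genes, beside 55.0% of all genes, with a median log2 difference of 0.86 and of 0.03 over all genes. Leaving out Tet1-null library 2 took the median to 0.19, with higher values for 30 of the 38, and leaving out Tet1-null library 1 took it to 1.47, with higher values for 38. The 8 genes below 0 without Tet1-null library 2 were Ifit2 at -1.01, Usp18 at -0.65, Irf9 at -0.14, Mx1 at -0.10, Oas3 at -0.078, Lgals3bp at -0.078, Ifit1 at -0.050 and Epsti1 at -0.0035. With a term for Xist above 10 FPKM, an alternative chosen after seeing the data, the median was 1.11 and 38 of the 38 were higher. Within the Tet1-null group only library 2 was above 10 FPKM, so the term was itself estimated in part from that library. The median standard error of these genes was 0.58, against 0.26 for all genes tested. With limma's library weights, 27 of the 38 were called, beside 1.56% of all genes. Those weights were 0.457, 0.256 and 5.25 in the Tet1-null libraries, so that these calls rest mostly on library 2. The Tet1-null libraries lay wholly above the control libraries for 6 of the 39 genes, Trim25, Eif2ak2, Sp100, Trim30a, Tor3a and Ifi27l2a, beside 3.44% of all genes, and wholly below for 0 (2.2% of all genes).

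Against the double-heterozygous group, the Tet1-null values were higher for 38 of 38 genes, beside 45.9% of all genes, with a median log2 difference of 1.05 (all genes -0.02). The largest was that of Isg15, at 2.07 (SE 0.94), and Xaf1 had the smallest unadjusted limma p, 0.0216. At an unadjusted p under 0.05 there were 7 of the 38 (1.82% of all genes), and 0 were called (0.0066% of all genes higher and 0.0132% lower). The libraries did not overlap for Trim30a and Ifi27l2a, both higher (1.56% of all genes). The median was 0.29 without Tet1-null library 2, with 32 of the 38 higher, and 1.53 without library 1, with 38 higher. With library weights, which rest the Tet1-null group mostly on library 2, 18 of the 38 were called (0.541% of all genes).

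Against the Tdg-heterozygous group, the Tet1-null values were again higher for 38 of 38 genes, beside 56.6% of all genes. The median log2 difference was 0.69 (all genes 0.03), and 0 were called (0.0066% of all genes higher, 0.0132% lower). Tor3a had the smallest unadjusted limma p, 0.0163, the only one of the 38 under 0.05 (1.11% of all genes), and was the only gene whose libraries did not overlap (1.98% of all genes). Without Tet1-null library 2 the median turned to -0.049 and 17 of the 38 genes were higher. It was 1.24 without Tet1-null library 1, with 38 higher, and 0.76 without Tdg-heterozygous library 2, with 36 higher. Under library weights 0 of the 38 were called (0.0264% of all genes).

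The double-heterozygous group had higher values than the controls for 15 of the 38 genes, beside 58.4% of all genes. The median log2 difference was -0.09 (all genes 0.05), with 0 called (0.0198% of all genes higher, 0 lower). The direction turned with the term for Xist above 10 FPKM, where 36 of the 38 were higher and the median was 0.41. No double-heterozygous library had Xist above 10 FPKM, so the term was estimated from the other groups, Tet1-null library 2 among them. This turn therefore does not describe the double-heterozygous libraries alone. Without control library 1 the median was 0.02 and without double-heterozygous library 0 it was -0.22. The libraries lay below every control for Mx1 and Zbp1 (2.01% of all genes) and above for 0 (5.78%). The smallest unadjusted limma p was that of Tor3a, 0.121, so that 0 of the 38 were under 0.05 (1.17% of all genes).

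The Tdg-heterozygous group had higher values than the controls for 30 of the 38 genes, beside 47.1% of all genes. The median log2 difference was 0.26 (all genes -0.01), with 0 called (0.0198% of all genes higher, 0 lower). The median was 0.11 without control library 0, and 0.12 without Tdg-heterozygous library 2, with 27 of the 38 higher. Zbp1 was the only gene with no overlap (1.61% of all genes), and the smallest unadjusted limma p was 0.269, for Trim25 (0.898% of all genes were under 0.05). Between the double-heterozygous and Tdg-heterozygous groups 33 of the 38 genes had lower values in the former, with a median of -0.31 (all genes 0.05, with 59.9% higher), and 0 were called (0 of all genes in either direction). Without Tdg-heterozygous library 2 the median was -0.17 and 12 of the 38 were higher, and with the Xist term it turned to 0.23 and 34 were higher. That term was estimated from groups other than the double-heterozygous, Tet1-null library 2 among them. Mx1 and Zbp1 were the genes with no overlap there (0.898% of all genes), Trim30a had the smallest unadjusted limma p, 0.207, and 0 of the 38 were under 0.05 (1.52% of all genes). The 3 comparisons with the controls share the control libraries, so they are not independent of each other.

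Among single libraries, Tet1-null library 0 lay above every control library for 32 of the 39 genes (31.6% of all genes), with a median of 1.59-fold over the control mean. It was at least 2-fold above every control library, on FPKM + 1, for 3 of them (0.997% of all genes). Tet1-null library 1 lay above every control for 10 genes (39.4% of all genes) and below every control for 17 (34.4%), with a median of 0.741 of the control mean. It held the lowest of the 12 values for 11 genes (15.5% of all genes).

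Double-heterozygous library 2 lay below every control library for 19 of the 39 genes (22.4% of all genes) and held the lowest of the 12 values for 9 of them (4.86%). Tdg-heterozygous library 2 lay above every control for 21 genes (37% of all genes) and below for 8 (37.4%). It was at least 2-fold above every control, on FPKM + 1, for 7 genes (6.45% of all genes) and at least 2-fold below for 2 (4.21%), and its largest fold over the control mean was 4.63, for Oas3.

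The set split in the 2 libraries with the lowest Notum. Tet1-null library 1 and Tdg-heterozygous library 2 both lay above every control library for 9 genes, Ifih1, Eif2ak2, Trim25, Oas1a, Samd9l, Trim30a, Sp100, Ifi27l2a and Epsti1, beside 26.1% of all genes. Both lay below every control library for 8 genes, Ddx58, Irf9, Usp18, Ifit1, Ifit2, Bst2, Cmpk2 and Lgals3bp, beside 24.8% of all genes. These shares are near those of all genes, so they are no result about the set. Without these libraries and double-heterozygous library 0, an alternative chosen after seeing the data, the median log2 difference between Tet1-null and control was 1.47.

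**Figure D4:**
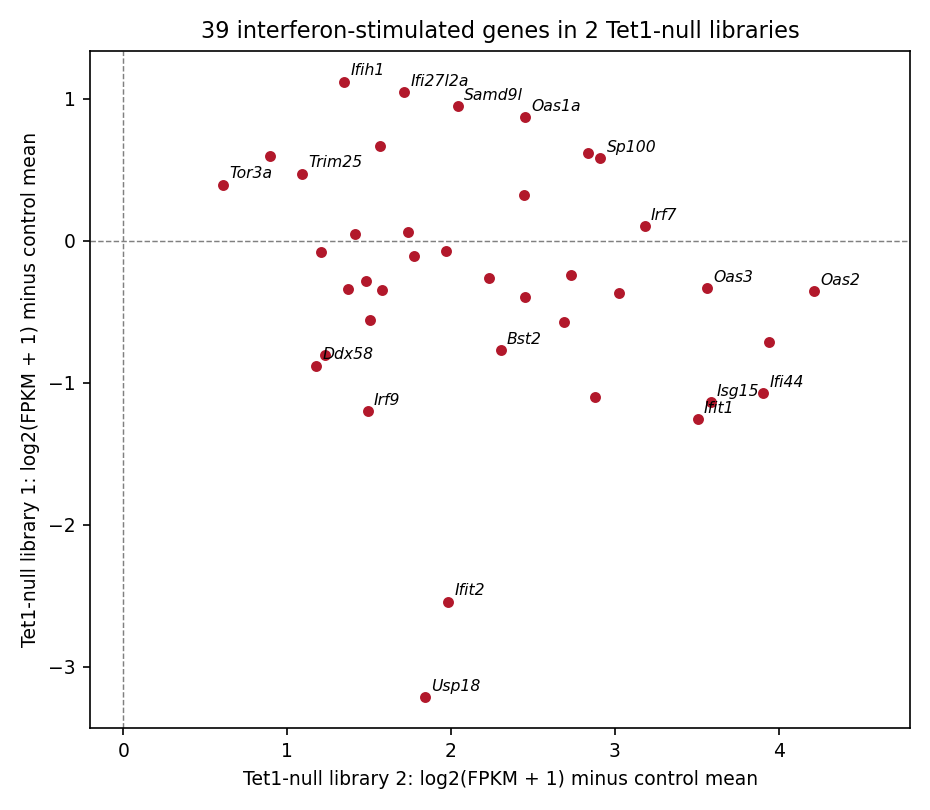
Each of the 39 genes is placed by its log2(FPKM + 1) minus the control mean in Tet1-null library 2 (horizontal axis) and in Tet1-null library 1 (vertical axis), with dashed lines at 0. All points lie right of 0, from Tor3a to Oas2, while on the vertical axis they lie on both sides of 0, with Usp18 and Ifit2 lowest and Ifih1 highest.

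Genes with a response element core in the promoter window reached higher folds in Tet1-null library 2. The 9 genes printed above had a median of 8.89-fold over the control mean, from 3.66-fold for Stat2 to 25.9-fold for Oas3. The 19 genes with a window and no match had a median of 3.25-fold, from 1.92-fold for Eif2ak2 to 21.4-fold for Ifi44. The ranges overlap, the 11 genes without a window, Oas2 among them, could not be placed, and this difference was not tested.

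The ligands of the pathway had under 1 FPKM in every library. Of 21 interferon genes written in the list 5 have a row in the table, and the others were not analysed here. Ifnb1, the interferon beta gene, was listed at 0 in 11 of the 12 libraries and at 0.0590 FPKM in control library 2. Ifne, the interferon epsilon gene, had the highest values of the 5, at 0.894, 0 and 0.219 FPKM in Tet1-null adenomas, 0.770 FPKM in Tdg-heterozygous library 0 and 0.485 FPKM in control library 2, with 0 in both other controls. Ifng, the type II interferon gene, reached at most 0.224 FPKM, in Tdg-heterozygous library 1, and stood in the Tet1-null libraries at 0, 0 and 0.0556 FPKM. The receptor genes Ifnar1 (12.9 to 23.5 FPKM) and Ifnar2 (10.3 to 25.2 FPKM) were found in every library, both lowest in Tet1-null library 1.

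Irf1, a factor induced most by interferon gamma, stood at FPKM values of 38.9, 43.8 and 77.1 in the Tet1-null libraries, 34.8, 33.8 and 48.4 in the double-heterozygous, 44.3, 46.6 and 42.3 in the Tdg-heterozygous and 37.4, 42.1 and 37.5 in the control libraries. It was highest in Tet1-null library 2, and every Tdg-heterozygous library lay above every control library. Cxcl10, a chemokine induced by both kinds of interferon, stood at FPKM values of 4.97, 0.348 and 23.5 in the Tet1-null libraries, 3.46, 4.31 and 1.86 in the double-heterozygous, 11.4, 11.3 and 4.05 in the Tdg-heterozygous and 2.05, 13.2 and 4.42 in the control libraries. Tet1-null library 2 was the highest, and control library 1 and Tdg-heterozygous libraries 0 and 1 came next.

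None of the other genes of the pathway was called in any of the 6 comparisons. Between Tet1-null and control, 9 of 11 receptor and signalling genes, 8 of 12 upstream sensing genes, 3 of 7 negative regulators and 5 of 7 interferon gamma targets that passed the filter had higher values (55.0% of all genes). Their median log2 differences were 0.15, 0.19, -0.01 and 0.38. Of 9 interferon gamma targets in the table, 6 were highest in Tet1-null library 2 (7.72% of all genes). The summed FPKM of that list was 77.6, 56.5 and 173 in the Tet1-null libraries and 52.8 to 90.3 in the controls.

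A few of these 4 lists' genes, 39 of which are in the table, had libraries that did not overlap with the controls. In the Tet1-null group 3 were higher and 0 lower (3.44% and 2.2% of all genes), in the double-heterozygous 1 and 2 (5.78% and 2.01%), and in the Tdg-heterozygous 2 and 0 (1.61% and 2.4%). Stat3, Mavs and Ptpn11, a STAT of cytokine signalling, the adaptor of RIG-I and a phosphatase, were higher in every Tet1-null than in every control library. The Mavs values were 13.95, 16.3 and 14.6 FPKM against 12.5, 12.3 and 11.03 FPKM. Myd88, an adaptor of Toll-like receptors, was higher in every double-heterozygous library (28.3, 15.6 and 16.1 FPKM) and in every Tdg-heterozygous library (16.2, 15.4 and 28.4 FPKM) than in the controls (15.2, 15.3 and 15.1 FPKM). Tmem173, which encodes the DNA-sensing adaptor STING, and Socs1, an inhibitor of JAK kinases, were lower in every double-heterozygous than in every control library. Their values there were 45.04, 45.8 and 47.2 and 2.96, 4.12 and 3.29 FPKM, against 55.96, 65.7 and 96.5 and 4.29, 5.92 and 7.62 FPKM in the controls.

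Markers of immune cells moved with the set in part. In bulk tissue fewer cells of a type and less RNA per cell cannot be told apart. The summed FPKM of 13 T and natural killer cell markers was 19.9, 6.66 and 25.3 in the Tet1-null libraries, the same order as the score. It was 4.65, 9.48 and 9.31 in the double-heterozygous, 16.5, 14.3 and 12.5 in the Tdg-heterozygous and 8.05, 8.80 and 12.7 in the control libraries. In none of these other groups was the order that of the score. Of these 13, 7 were highest in Tet1-null library 2 (7.72% of all genes), where Cd3g stood at 9.04 FPKM and none was listed at 0. Cd8b1 was listed at 0 in Tet1-null library 1 and Tdg-heterozygous library 2, and the natural killer marker Ncr1 in 6 libraries. Of 9 macrophage markers 0 were highest in Tet1-null library 2, and their sum was 403, 171 and 311 FPKM in Tet1-null adenomas and 195 to 317 FPKM in the controls.

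Of 8 neutrophil markers 0 were highest in Tet1-null library 2, and S100a8 stood there at 68.6 FPKM, its lowest of the 12. Of 6 markers of plasmacytoid dendritic cells, the main interferon producers of blood, 0 were highest in Tet1-null library 2. That library was highest for 7.72% of all genes. In lists this short, the 0 of the macrophage, neutrophil and plasmacytoid lists is near that share and is no result about these cells. Siglech had 0.795, 0.0509 and 0.731 FPKM in Tet1-null adenomas and 0.0247 to 0.368 FPKM in the controls, while Klk1 had 4.07, 451 and 72.4 FPKM against 76.3 to 443 FPKM, and Cox6a2 was listed at 0 in Tet1-null library 2. The highest Siglech values of the 12 libraries were those of Tet1-null libraries 0 and 2, which also had the highest scores. Klk1 stood far above Siglech and did not follow it, so the count of 0 may not speak for these cells. Of 25 markers in the T and natural killer, B and plasma, and plasmacytoid dendritic cell lists, 6 were higher in every Tet1-null than in every control library and 0 lower, beside 3.44% and 2.2% of all genes. They were Klrd1, Prf1 (at most 0.107 FPKM), Ccr9, Cd79a, Mzb1 and Pou2af1. In the double-heterozygous group 2 were higher, again Cd79a and Pou2af1, and 2 lower (5.78% and 2.01% of all genes). The macrophage and neutrophil lists held 0 such genes in either direction between Tet1-null and control. Only 3, 4 and 3 genes of the 3 pooled lists passed the filter, while the shares are of genes that passed it. The part of these cells in the values of the interferon-stimulated genes was not tested.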

How the data were processed

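Per the labels' protocols, 500 ng of total RNA per sample went into TruSeq libraries, a kit that does not mark strand. Single-end reads of 75 nt were aligned with TopHat2 to mm10. Cufflinks and Cuffdiff are named in the submitters' processing notes, and their versions, the annotation and the treatment of multiply mapped reads are not given in the sources used here. The authors deposited FPKM, and no further scaling was applied. Column letters gave each library's group, and 0 columns of no sample were left unused.

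Values were tested as log2(FPKM + 1) with limma 3.58.1 in R 4.3.3, in 1 model of 4 group means with a variance trend, with Benjamini-Hochberg adjustment per comparison over the 15150 genes that reached 1 FPKM in 3 or more libraries. A fold change on this scale understates the change of low genes. Calls were made at an adjusted p under 0.05. The procedure was tested on simulated data. Folds of single libraries are FPKM over the control mean, without a pseudocount. Python 3.11.15 was used for counts, motifs and figures. Positions come from GENCODE M21, where 39 of 39 gene IDs matched, and 106 symbols that stand for more than 1 ID were left out of the marker lists and of the likeness ranking. Transcripts of that annotation were cut into 75 nt windows and compared between genes.

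The members and lists were chosen with earlier results of these data known. By the naming rule, 24 genes, and any with the smallest unadjusted p of a comparison, have their values given in every library, and the others are given by folds and counts. A few results that the rule covers are not reported here. Other settings were other pseudocounts (0.1 and 5), other filters (none, or a mean FPKM of 5), 3 scalings, robust variance, library weights, only the groups compared and leaving out each library.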

Additional observations from a re-analysis of the deposited data

How the results depend on the processing

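Under 24 alternative settings, 369 values of groups or of single libraries stayed near the main result, and 10 did not. Near means within the pooled SD of the score between libraries of a group (0.61) or within 1.5 times the count. That SD was 1.17 in the Tet1-null group and 0.18 to 0.22 in the others. A median could therefore change sign and still count as near. Library weights rested the Tet1-null group mostly on library 2. With them, Tet1-null against control had 27 genes called (1.56% of all genes) and a median of 1.81. Tet1-null against double-heterozygous had 18 (0.541%) and 2.13, and against Tdg-heterozygous 0 (0.0264%) and 1.67. Without Tet1-null library 1, double-heterozygous library 0 and Tdg-heterozygous library 2, a setting chosen after seeing the data, the last 2 medians were 1.70 and 1.38. Leaving out 1 library at a time, the median ranged from 0.19 to 1.47 for Tet1-null against control, from 0.29 to 1.53 against double-heterozygous, and from -0.049 to 1.24 against Tdg-heterozygous. The same range was -0.22 to 0.02 for double-heterozygous against control, 0.11 to 0.35 for Tdg-heterozygous against control and -0.46 to -0.17 between these mutant groups, with 0 genes called each time. Adding a model term for Xist (above or below 10 FPKM), also chosen after seeing the data, turned the median of double-heterozygous against control from -0.09 to 0.41 and that against Tdg-heterozygous from -0.31 to 0.23. No double-heterozygous library was above 10 FPKM, so the term came from the other groups, Tet1-null library 2 among them. Scaling to the same total moved the median of all genes to -0.10 for Tdg-heterozygous against control and to 0.11 for double-heterozygous against Tdg-heterozygous. Single genes that changed sign between Tet1-null and control were Usp18, at -0.14 with a pseudocount of 0.1, and Ifit2, at 0.20 with a pseudocount of 5, 0.011 after quantile normalization, 1.62 with library weights, 1.25 without the 3 libraries and 0.33 with the Xist term. When 1 library was left out at a time, Usp18 ranged from -0.69 to 1.88, Ifit2 from -1.01 to 1.25, Irf9 from -0.14 to 1.20, Ifit1 from -0.050 to 2.33, Mx1 from -0.10 to 0.93, Oas3 from -0.078 to 1.87, Epsti1 from -0.0035 to 1.12 and Lgals3bp from -0.078 to 0.94. The cause was not tested. No paired analysis was possible because the columns are numbered 0 to 2 and cannot be tied to the replicate numbers of the labels. No counts are given, so the limits that depth sets are unknown.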

Other observations

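Genes outside the set were ranked by how closely they followed its score over the 12 libraries. Of 12843 named genes, the 15 with the highest Pearson r were Apol9b (0.951), Oas1b (0.940), Ddx60 (0.931), Tapbp (0.929), Il18bp (0.926), H2-K1 (0.925), Ube2l6 (0.899), Helz2 (0.898), Znfx1 (0.897), Gbp3 (0.896), Tap1 (0.895), Slfn5 (0.894), Tap2 (0.891), Psmb9 (0.890) and Zcchc2 (0.887). H2-K1, a class I histocompatibility gene, had 415, 277 and 829 FPKM in Tet1-null adenomas and 226, 249 and 201 FPKM in the controls. Tap1, a subunit of the transporter that loads such molecules, had 21.9, 7.66 and 51.3 FPKM in Tet1-null adenomas and 5.04, 15.2 and 8.397 FPKM in the controls. Both were highest of the 12 in Tet1-null library 2. The genes of a library share its depth and tissue makeup, which can differ between libraries, so the values are descriptions.

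Without Tet1-null library 2, over 11 libraries, a list of 15 other genes followed the score most closely, with 0 genes in common with the first. Among them were Myo1g (0.917), Dmxl2 (0.892), Ogfrl1, Myo1f, Sp140, Arhgap30, Fcgr2b, Hcls1, Tnfrsf4, Fcer1g, Nckap1l, Ctla4, Itgal and Itgb2 (0.845). Itgb2 encodes the beta chain of leukocyte integrins. Itgb2 had FPKM values of 8.699, 3.85 and 9.56 in the Tet1-null libraries, 7.91, 4.21 and 3.21 in the double-heterozygous, 5.23, 6.41 and 11.5 in the Tdg-heterozygous and 2.66, 6.34 and 6.81 in the control libraries.

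Hoxb13, a gene of the distal colon, stood at 25.1 FPKM in Tet1-null library 2, its lowest of the 12, and at 80.7 to 159.5 FPKM in the other libraries. Hoxd13 stood at 0.683 FPKM there, 0.2099 FPKM in control library 0, 4.39 FPKM in Tdg-heterozygous library 1 and 24.9 to 144 FPKM elsewhere. The summed FPKM of the small-intestinal list was 33.7 in Tet1-null library 2 and 7.29 to 29.3 elsewhere. That of the colonic list was 310 there and 296 to 871 elsewhere.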
